A study of Mus musculus with 15 samples.

Results

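Mouse mesenchymal cells of the genotype label EFPrx1MSCLC were compared with cells of the label MSC across all genes, with genes of blood cells kept apart from genes of the stroma. The comparison holds 7 of the 15 libraries of the series, chosen by experiment and genotype label alone. The 4 libraries labelled EFPrx1MSCLC carry the title numbers 219, 221, 225 and 229 and are called EF here. The 3 libraries labelled MSC carry the numbers 202, 234 and 237 and are called WT, a word that the titles of 234 and 237 add. All 7 give MSCLCs as their cell type, an abbreviation that is not spelled out, and all ran on the same lane of the same flowcell. The title given to the series speaks of mesenchymal stem cells of bone and of EWS::FLI1, YAP1 and IGF-1. Which alleles the label EFPrx1MSCLC stands for, what drives their expression, and the strain, age, treatment and passage of the cells are not stated in the labels. Nor is it said whether the libraries of a group came from separate animals or cultures, so the p-values reflect only how these libraries vary, which may be technical. The count table has no row for EWS::FLI1, and the mouse genes Fli1 and Ewsr1 cannot stand in for it as a check of the genotype.

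Mesenchymal stromal cells of the bone marrow and periosteum attach to plastic, make collagen-rich matrix and can give rise to bone, cartilage and fat. They secrete chemokines and growth factors that hold and feed blood-forming cells, and fresh cultures often carry macrophages that attach with them. EWS::FLI1 is the fusion transcription factor of Ewing sarcoma, a bone and soft tissue tumour of the young, and mesenchymal stromal cells are among its proposed cells of origin. Prrx1, also called Prx1, is a transcription factor of limb bud mesenchyme whose enhancer is widely used to direct transgenes to the limb skeleton.

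Each library held 14906180 to 26833876 counts. WT 202 stood apart from the other WT libraries. The median absolute log2 difference per gene was 0.25 between WT 234 and WT 237, but 0.72 and 0.60 between WT 202 and these, as much as between WT 202 and the EF libraries (0.62 to 0.68). Genes with a median transcript length of up to 1000 bases took 56.7% and 54.8% of the nuclear counts in WT 234 and WT 237, and 42.8% in WT 202, within the 39.3 to 45.8% of EF. Ribosomal protein genes took 10.1% and 8.26% of all counts in WT 234 and WT 237, against 2.37% in WT 202 and 1.85 to 3.45% in EF. Of the genes tested, the median log2 difference between EF and WT was -0.17 for the short class and 0.50 for transcripts over 4000 bases. Mitochondrial genes took 4.06 to 8.43% in EF and 1.63 to 3.52% in WT. The Y-linked gene Ddx3y was at 87.4 CPM for WT 202 and 43.1 CPM for WT 234, per library total, and at most 0.134 CPM in the other 5 libraries. Xist, which coats the silenced X, was at 2.38 and 1.94 CPM in WT 202 and WT 234, 507 CPM in WT 237 and 794 to 1331 CPM in EF. By these genes 2 of the 3 WT libraries had a male pattern and all 4 EF libraries a female one, so sex differed between the groups. Among EF libraries, 221 and 229 lay closest to each other (0.15), while the other pairs were 0.38 to 0.56 apart. The part of these library differences in the results below was not tested, beyond leaving out each library in turn.

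Levels are counts per 1000000 scaled by TMM, called CPM, and differences are log2 of EF over WT ± standard error from edgeR's quasi-likelihood test. A gene is said to have risen or fallen where its Benjamini-Hochberg adjusted p was under 0.05. Of 14596 genes tested, 1124 rose in EF, which is 7.7%, and 1763 fell, which is 12.1%, or 19.8% in both directions. The median log2 difference over all genes tested was 0.04. These shares are the background for the gene lists below. Genes named as risen or fallen kept their call when any 1 of the 7 libraries was left out, unless a loss is given beside them. The number of calls itself depended on single libraries. Without WT 202 there were 2519 higher and 2568 lower genes. Without WT 234 or WT 237, 271 and 245 genes were higher and 1004 and 974 lower. Without EF 221 or EF 229, 469 and 438 were higher and 1204 and 1142 lower.

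The mesenchymal label was checked first. Vim, the intermediate filament gene of mesenchymal cells, was at 1386, 3524 and 3525 CPM in WT 202, 234 and 237 and at 4623, 2999, 1585 and 3074 CPM in EF 219, 221, 225 and 229. The groups overlapped, and the difference was 0.13 ± 0.49. Pdgfra, a growth factor receptor of mesenchymal cells, was at 116 to 329 CPM in WT and 355 to 576 CPM in EF (1.27 ± 0.42, edgeR adjusted p = 0.0702). Thy1, the surface protein CD90, was at 160, 428 and 273 CPM in WT, at 1446 and 1522 CPM in EF 221 and 229, and at 12.7 and 24.5 CPM in EF 219 and 225. Eng, the surface protein CD105, had the reverse order in EF, with 359 and 601 CPM in 219 and 225 and 5.37 and 34.1 CPM in 221 and 229. The EF libraries thus lay on both sides of WT for these standard stromal surface markers. Of the 18 mesenchymal surface and reporter genes tested, Cd34 rose by 2.89 ± 0.59 and Pdgfrb fell by 1.76 ± 0.47, and 16 did not pass. Without WT 234 or WT 237 the call of Cd34 was lost (highest edgeR adjusted p = 0.0715), and the call of Pdgfrb was lost without WT 234, EF 219, EF 221 or EF 229 (highest edgeR adjusted p = 0.0828).

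Genes of blood cells were lower in EF across almost all lists of their kinds. Of 129 tested genes in 8 blood-cell lists, 103 fell, which is 79.8% against 12.1% of all genes tested, and their median log2 difference was -6.13. These 103 genes were 5.84% of all genes that fell. Together the lists summed, per library total, to 22427, 45634 and 32826 CPM for WT 202, 234 and 237. The sums were 2906, 625, 1236 and 744 CPM for EF 219, 221, 225 and 229. The lowest WT library was thus 7.72-fold above the highest EF library. The 8 libraries of experiment 2, which have the same cell type label, held 382 to 547 CPM. Their genotype labels are EF, ha and hr, and all 8 carry the title number 221, as EF 221 does. Whether they are separate cultures is not stated. In bulk RNA, fewer cells of a type and less RNA per cell cannot be told apart.

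**Figure D1:**
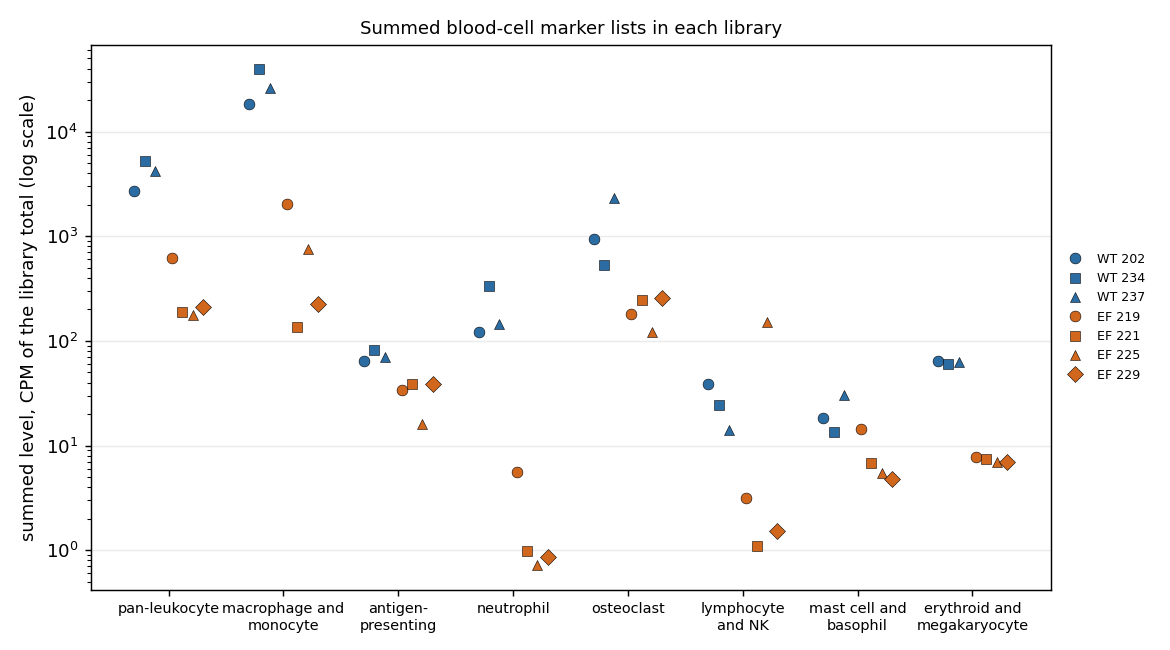
Summed level of each blood-cell marker list (CPM of the library total, log axis) in the 3 WT (blue) and 4 EF (orange) libraries, 1 point per library. Macrophage and monocyte genes are at 18475 to 39308 CPM in WT and 136 to 2044 CPM in EF, and the lymphocyte list is highest in EF 225.

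Macrophage and monocyte genes made up most of this sum. Of 62 tested, 56 fell, with a median of -6.65, and 40 fell without WT 234. Lyz2, the myeloid lysozyme, was at 8351, 27282 and 15550 CPM in WT and at 254, 16.1, 30.2 and 25.8 CPM in EF 219, 221, 225 and 229. All EF libraries lay below all WT libraries, and EF 219 was the highest of the 4. The log2 difference of Lyz2 was -7.71 ± 1.27 (edgeR adjusted p = 0.0074), and without EF 219 the difference was -9.57. Csf1r, the receptor that macrophages need to survive, was at 305, 290 and 352 CPM in WT and at 11, 0.24, 0.641 and 0.973 CPM in EF (-6.62 ± 1.31, edgeR adjusted p = 0.0141, and -9.04 without EF 219). Fcgr1, the high-affinity IgG receptor, fell by 8.44 ± 0.64, and Ncf4, a subunit of the phagocyte oxidase, fell by 6.61 ± 0.73. Fcgr2b, an inhibitory IgG receptor, was at 258 to 628 CPM in WT, 23.6 CPM in EF 219 and at most 0.257 CPM in the other EF libraries, and did not pass (edgeR adjusted p = 0.0526). Gpnmb, a glycoprotein of macrophages that mesenchymal cells also make, was at 1177 to 1565 CPM in WT and at 1140, 12, 624 and 68.7 CPM in EF (edgeR adjusted p = 0.371).

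Pan-leukocyte genes were lower in EF as well. Of 32 tested, 28 fell (median -6.00), and 21 fell without WT 234. Ptprc, the leukocyte common antigen CD45, was at 102, 83.3 and 79.3 CPM in WT. In EF it was at 5.79 CPM in 219 and at 0.0959, 0.128 and 0.0348 CPM in 221, 225 and 229, below all WT libraries. The difference was -5.87 ± 1.53 (edgeR adjusted p = 0.0356), and the call was lost without WT 234, WT 237, EF 221, EF 225 or EF 229 (highest edgeR adjusted p = 0.0922). Laptm5, a lysosomal protein of blood cells, had a like pattern, with 332 to 394 CPM in WT, 27.2 CPM in EF 219 and at most 0.695 CPM in the other EF libraries (edgeR adjusted p = 0.0622). Cd53, a leukocyte tetraspanin, fell by 4.18 ± 0.37 and was still at 8.97 to 18.4 CPM in EF, lowest in EF 219. Arhgdib, a GTPase regulator of blood cells, was at 377 CPM in EF 219, above the 109 to 313 CPM of WT.

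The smaller blood-cell lists had fewer members. Of 7 neutrophil genes tested, 6 fell. Fpr1, a receptor for bacterial peptides, fell by 9.15 ± 0.65 from 53.4 to 72 CPM in WT to 0 to 0.256 CPM in EF. S100a8, a calcium-binding protein of neutrophils, fell by 9.22 ± 1.12, with a difference of -7.39 without WT 234, where it was highest (199 CPM). Of 8 osteoclast genes 4 fell, and 2 fell without WT 234, WT 237 or EF 229. Acp5, the tartrate-resistant acid phosphatase of osteoclasts, was at 588 CPM in WT 237 but 16 and 27.4 CPM in WT 202 and 234, and at most 0.336 CPM in EF (-9.99 ± 1.58, and -6.71 without WT 237). Ctsk, the collagen-cleaving protease of osteoclasts, was at 369 to 1048 CPM in WT and 4.61 to 44.6 CPM in EF (-4.93 ± 0.92). Pf4, a platelet chemokine, fell by 7.79 ± 1.03, and it was 1 of 3 genes that fell among 6 erythroid and megakaryocyte genes. The adult globin genes Hba-a1 and Hbb-bs were at 0.139 to 1.06 CPM over all 7 libraries. Of 8 antigen-presenting cell genes 4 fell, and 2 fell without WT 234, WT 237, EF 221 or EF 229. Among them H2-Ab1, a class II MHC chain, fell by 6.40 ± 0.62. Of 3 lymphocyte genes tested 2 fell, and neither call held without WT 234, WT 237, EF 221 or EF 229. Ighm, the heavy chain of IgM and chosen after its values were seen, was at 147 CPM in EF 225 and at most 0.227 CPM in the other 6 libraries. Of 3 mast cell and basophil genes none passed edgeR's test. Without adjustment 1 had p under 0.05, and DESeq2 called 1 and limma-voom 0.

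Other cell types that a stromal culture could hold were represented by few tested genes. Of 6 endothelial genes tested 1 fell (2 without EF 225), Erg, an endothelial transcription factor, which was at 0.765 to 1.73 CPM in WT and had 1 count in EF. Tnnt3, a fast muscle troponin, fell by 4.15 ± 0.64 among 2 skeletal muscle genes and was at 0.99 to 2.88 CPM in WT. Tubb3, a neuronal tubulin, fell by 4.84 ± 0.74 among 6 neural and Schwann cell genes. These single falls do not stand for their lists. The summed endothelial list, per library total, was at 14 to 16.3 CPM in WT. It was at 55.6, 136 and 128 CPM in EF 219, 221 and 229 and at 7.02 CPM in EF 225. The neural list was at 106 to 128 CPM in WT, 279, 157 and 155 CPM in the same EF libraries and 13 CPM in EF 225. The skeletal muscle and epithelial sums overlapped between the groups. Cdh1, the epithelial cadherin E-cadherin, was the 1 of 4 epithelial genes that fell (2 without EF 219). It was at 9.67, 26.8 and 4.91 CPM in WT and had no count in EF, at least 365-fold lower with a floor of 3 counts over the group. Macrophages can also express Cdh1, and its part in the blood-cell signal was not tested.

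To see which other genes ran alongside the blood-cell signal, genes were counted whose WT libraries had the same rank order as the summed pan-leukocyte genes (202 lowest, 234 highest) and whose highest EF library was 219. Of 14596 genes tested 1620, or 11.1%, had this order. It was found in 362 of the 1763 genes that fell and in 18 of the 1124 that rose. This order was not particular to blood cells: the short-transcript and ribosomal protein shares ranked the WT libraries the same way and 11 of 22 mitosis genes had it too. Outside the blood-cell and shared lists and without this order, 12861 genes remained, of which 1105 rose and 1318 fell. Of the 129 blood-cell genes tested 44 (34.1%) had the order, and of the 103 that fell 41 had it, so that a gene without it is not thereby set apart from the blood-cell signal.

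Genes that both myeloid and stromal cells express were counted apart. Of 36 tested, 25 fell and 1 rose (median -3.70). Without WT 234 19 fell, and the rise was lost without WT 237 or EF 229. Saa3, an acute-phase protein of the serum amyloid family, was at 3358, 4085 and 3227 CPM in WT and 4.05, 1.53, 2.31 and 1.84 CPM in EF. Ctsd, a lysosomal protease, was at 6625 to 10358 CPM in WT and 816 to 1094 CPM in EF, so that it fell (-3.19 ± 0.33, edgeR adjusted p = 0.00185) but stayed among the abundant transcripts. Apoe, a lipid carrier, fell by 8.05 ± 0.84. The monocyte chemokine gene Ccl7 was at 571 to 922 CPM in WT and 25.1 to 46.6 CPM in EF (-4.40 ± 0.36). Fn1, the gene of fibronectin, was at 4680 to 21387 CPM in WT and 1941 to 11094 CPM in EF, and the groups overlapped. Spp1, the gene of osteopontin, was at 36965 CPM in EF 225, at 5866 to 7095 CPM in WT and at 633 to 2663 CPM in the other EF libraries. Among the 15 largest falls outside these lists were also genes known from myeloid cells. Arg1, arginase, was at 69, 416 and 547 CPM in WT and did not exceed 0.321 CPM in EF. Clec4a2 and Sirpb1c, receptors of myeloid cells, fell by 9.41 ± 0.93 and fell by 9.40 ± 0.58, respectively. These 3 genes are not counted among the stromal results below. For the falls in the lists below, the part of the blood-cell signal was not tested.

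The chemokine and acute-phase genes that stromal cells secrete had the lowest median of the stromal lists after the tendon genes. Of 25 tested, 16 fell and 1 rose, with a median of -3.60, and 13 to 18 fell with any 1 library left out. The single rise was lost without WT 234, WT 237, EF 221, EF 225 or EF 229. Cxcl5, a neutrophil-attracting chemokine, was at 740, 642 and 1310 CPM in WT and 0.769, 0.336, 0.898 and 0.521 CPM in EF. Cxcl14, a chemokine of fibroblasts and epithelia, was at 201, 391 and 518 CPM in WT and 0.564, 0.24, 0.257 and 0.104 CPM in EF (-10.32 ± 0.68, edgeR adjusted p = 0.000553). The groups were far apart for both, and no EF library reached 1 CPM. Hp, the haemoglobin-binding haptoglobin, fell by 6.14 ± 0.48 from 163 to 384 CPM in WT to 2.05 to 5.59 CPM in EF. Zc3h12a, an RNase that degrades cytokine transcripts, fell by 3.60 ± 0.34. For Ccl11, the eosinophil chemokine eotaxin, 3 counts were left in EF, and the EF level as a ratio to WT had a 95% binomial interval of 0.000223 to 0.00317, which covers counting error only. Csf1, the growth factor of macrophages, did not pass and was at 1121, 402 and 392 CPM in WT and at 418, 755, 3241 and 850 CPM in EF. Cxcl12, the chemokine that retains blood stem cells in the marrow, was at 357 to 782 CPM in WT and at 279, 73.1, 27.4 and 33.8 CPM in EF (edgeR adjusted p = 0.0844). The cytokine gene Il6 fell by 4.66 ± 0.93 from 134 to 291 CPM.

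Nfkbia encodes the inhibitor of NF-kappaB and is one of that factor's own target genes. It was named after its values were seen, because its promoter holds an NF-kappaB-type motif. It was at 84.5, 164 and 130 CPM in WT and 32.5, 20, 31.8 and 21.7 CPM in EF, with no overlap (-2.25 ± 0.31, edgeR adjusted p = 0.00408). The letters GGG, any 2 bases and then TTTCC, searched on both strands, were in the promoters of 5 of 17 tested genes of the chemokine list that have an entry (29.4%), and in 438 of 27025 promoters of 300 bases from RefSeq on GRCm38.p6 (1.62%). The other 4 were Ccl20, Csf1, Steap4 and Tnfaip3. Of these Steap4, a metalloreductase, fell (-4.60 ± 0.78), and Ccl20, a chemokine, fell by 4.39 ± 0.89 with its call lost without WT 234 or WT 237 (edgeR adjusted p up to 0.0559), while Csf1 and Tnfaip3 did not pass. A match is a description and not a binding site, and the 27025 promoters include those of genes not tested. The list was chosen as chemokine and acute-phase genes and includes known NF-kappaB targets such as Nfkbia. The shares thus come from unlike sets. The promoter of Nfkbia, chr12:55492598-55492897 (minus strand), is printed 5′ to 3′ from 250 bases before to 50 after the start, with the motif in capitals:
Nfkbia: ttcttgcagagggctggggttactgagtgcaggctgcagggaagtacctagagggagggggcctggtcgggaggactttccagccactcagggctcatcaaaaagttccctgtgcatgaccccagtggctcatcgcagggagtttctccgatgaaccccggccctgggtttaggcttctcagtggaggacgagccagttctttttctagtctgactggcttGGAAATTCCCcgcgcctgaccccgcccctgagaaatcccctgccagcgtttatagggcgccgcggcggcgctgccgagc

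Complement genes of stromal cells fell as well, 7 of 20 tested (median -1.36). Cfb, a protease of the alternative pathway, was at 452, 91.9 and 82 CPM in WT and 1.23, 0.48, 0.321 and 0.487 CPM in EF, all below WT (-8.36 ± 0.89, edgeR adjusted p = 0.002, and -7.09 without WT 202). Serping1, the inhibitor of C1, fell by 4.84 ± 0.84. Tfpi2, an inhibitor of coagulation, had 1 count in EF. C1s1, a protease of the classical pathway, did not pass, with 641 CPM in EF 225 and 112 to 119 CPM in the other EF libraries. Of 18 genes of MHC class I presentation 6 fell (3 without WT 234 or EF 229). H2-D1, a class I heavy chain, fell by 2.65 ± 0.41, and Calr, the chaperone calreticulin, fell by 2.16 ± 0.36. Both groups still expressed these genes, with H2-D1 at 126 to 296 CPM in EF.

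The unfolded protein and ATF4 stress genes formed the list with the largest share of falls outside the blood-cell and shared lists. Secretory cells raise chaperones through XBP1, ATF6 and ATF4 when unfolded protein builds up in the endoplasmic reticulum, and ATF4 also answers a lack of amino acids. Of 22 genes tested 15 fell, which is 68.2% against 12.1% of all genes, with a median of -1.50. With 1 library left out 8 to 14 fell, fewest without WT 237. All 4 EF libraries were below all 3 WT libraries for 18 of the 22, where the share over all genes tested was 18.4%. Ddit3, the stress transcription factor CHOP, was at 273, 255 and 185 CPM in WT and at 39.9, 17.1, 44.4 and 28.7 CPM in EF. The groups did not overlap, and the difference was -2.87 ± 0.36 (edgeR adjusted p = 0.00339). Trib3, a pseudokinase that ATF4 and CHOP induce, was at 141, 154 and 122 CPM in WT and 18.6, 7.63, 3.01 and 12.6 CPM in EF (-3.73 ± 0.56). Creb3l1, a membrane-bound factor of secretory cells that drives collagen genes, was at 77.4, 92.8 and 112 CPM in WT and 4.97 to 10.1 CPM in EF (-3.61 ± 0.30, edgeR adjusted p = 0.000858). Sdf2l1, an endoplasmic reticulum protein, fell by 2.48 ± 0.23, and Sesn2, a sestrin induced by amino acid lack, fell by 2.09 ± 0.29. In none of these 5 genes did an EF library reach the WT range, but they were named for the lowest p-values of the list. Their separation was thus favoured by the choice and adds nothing to the 18 of the 22.

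Of the 4 chaperone genes of the list that carry the endoplasmic reticulum stress element, 3 fell, and only Pdia6 kept its call with each library left out. They were named after their values were seen, because of the motif. Hspa5, the main luminal chaperone BiP, was at 7561, 2568 and 4214 CPM in WT and 883, 1425, 1187 and 1358 CPM in EF (-1.98 ± 0.43, edgeR adjusted p = 0.0194, and 0.059 without WT 237). Pdia6, a disulphide isomerase, was at 918 to 1489 CPM in WT and 287 to 396 CPM in EF (-1.73 ± 0.29). Hsp90b1, the chaperone GRP94, fell by 1.48 ± 0.43 and kept its call only when WT 234 was the library left out, with edgeR adjusted p up to 0.121. Dnajc3, a co-chaperone, was at 149 to 500 CPM in WT and 107 to 240 CPM in EF and did not pass. Phgdh, which starts serine synthesis and is an ATF4 target, was at 164 to 190 CPM in WT and 160 to 209 CPM in EF and did not pass (0.01 ± 0.21). The element, CCAAT, any 9 bases and then CCACG on either strand, was in the promoters of 4 of 20 tested genes of the list that have an entry (20%), and in 35 of 27025 promoters (0.13%). The letters TGATG, any base and then AA of the shorter element that ATF4 and C/EBP factors share were in 5 of the 20 (25%) and in 4.06% of all promoters. No match in this window says nothing about the factor. All promoters include those of genes not tested, and the list was chosen as genes of this response, so the shares come from unlike sets. The 4 promoters with the first element, in capitals, and that of Trib3 with the other in capitals, lie at chr2:34771840-34772139 (plus strand), chr12:17266339-17266638 (plus strand), chr10:86705395-86705694 (minus strand), chr14:118937682-118937981 (plus strand) and chr2:152344011-152344310 (minus strand). In Hspa5 the element starts 65 bases before the transcript start, in Pdia6 98 and in Dnajc3 105, while Hsp90b1 holds 2 and Trib3 has its match just after the start:
Hspa5: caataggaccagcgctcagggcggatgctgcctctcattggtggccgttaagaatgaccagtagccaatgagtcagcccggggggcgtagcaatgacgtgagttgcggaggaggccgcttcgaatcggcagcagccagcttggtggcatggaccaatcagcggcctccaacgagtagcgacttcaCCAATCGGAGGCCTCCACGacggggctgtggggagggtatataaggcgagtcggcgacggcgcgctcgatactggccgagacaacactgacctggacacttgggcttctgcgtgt
Pdia6: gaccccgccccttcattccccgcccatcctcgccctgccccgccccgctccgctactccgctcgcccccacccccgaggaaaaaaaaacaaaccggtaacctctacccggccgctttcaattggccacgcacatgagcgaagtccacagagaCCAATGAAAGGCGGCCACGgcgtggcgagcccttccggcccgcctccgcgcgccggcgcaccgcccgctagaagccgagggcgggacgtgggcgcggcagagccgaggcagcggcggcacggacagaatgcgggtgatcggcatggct
Hsp90b1: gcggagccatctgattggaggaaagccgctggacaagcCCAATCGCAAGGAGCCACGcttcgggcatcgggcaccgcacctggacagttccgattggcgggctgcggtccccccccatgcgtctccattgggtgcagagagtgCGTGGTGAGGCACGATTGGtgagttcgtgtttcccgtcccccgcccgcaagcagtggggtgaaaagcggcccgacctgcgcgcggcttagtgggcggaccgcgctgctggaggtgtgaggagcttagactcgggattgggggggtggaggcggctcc
Dnajc3: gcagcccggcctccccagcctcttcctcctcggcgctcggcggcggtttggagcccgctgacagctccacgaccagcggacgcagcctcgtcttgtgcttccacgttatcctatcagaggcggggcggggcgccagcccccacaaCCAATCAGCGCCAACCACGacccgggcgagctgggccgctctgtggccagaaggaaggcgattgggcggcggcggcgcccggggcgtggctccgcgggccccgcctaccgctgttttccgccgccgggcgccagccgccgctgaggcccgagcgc
Trib3: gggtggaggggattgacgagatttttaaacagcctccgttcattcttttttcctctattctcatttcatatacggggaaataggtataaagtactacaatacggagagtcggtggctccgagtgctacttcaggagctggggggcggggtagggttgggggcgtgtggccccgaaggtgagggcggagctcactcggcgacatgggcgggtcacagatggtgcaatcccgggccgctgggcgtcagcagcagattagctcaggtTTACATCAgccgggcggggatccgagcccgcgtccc

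**Figure D2:**
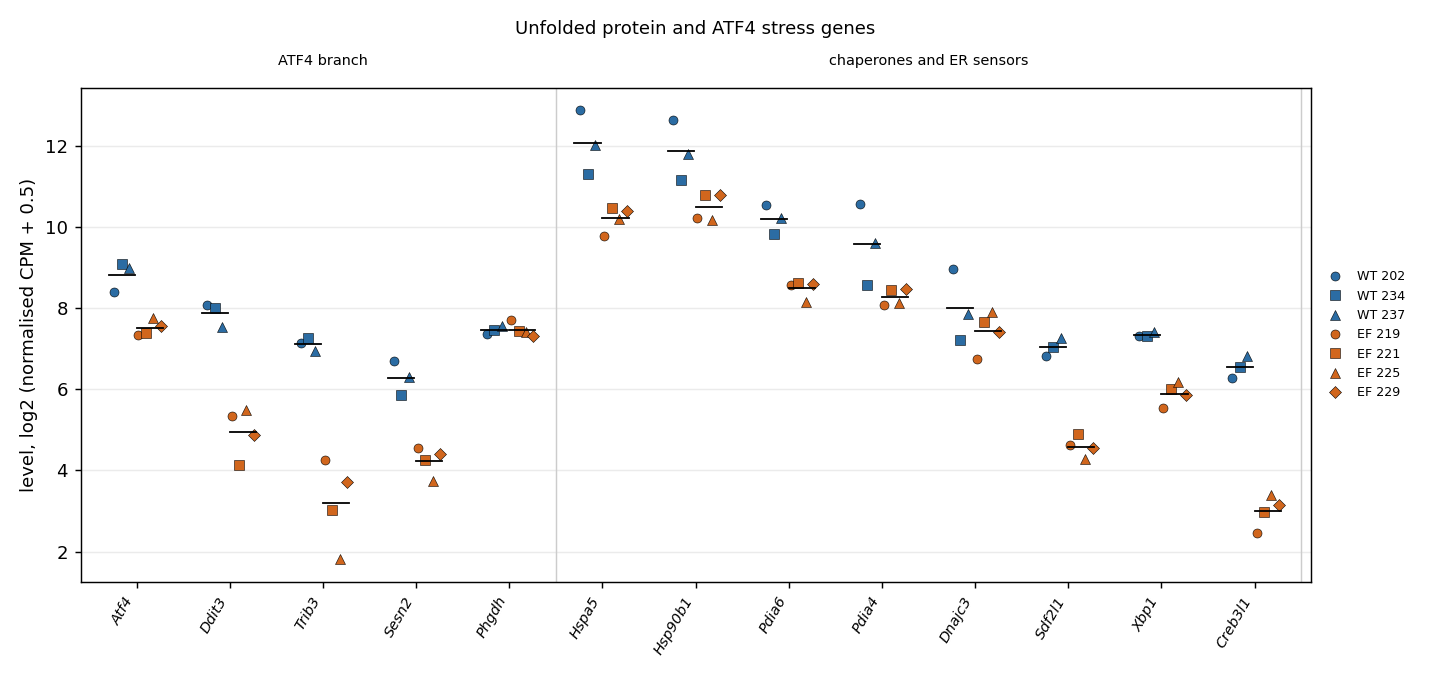
Levels of ATF4-branch genes and endoplasmic reticulum chaperones, as log2 of normalised CPM + 0.5, in 3 WT (blue) and 4 EF (orange) libraries, with a bar at the mean of each group. The groups are apart for genes such as Ddit3, Creb3l1 and Sdf2l1 and overlap for Phgdh and Dnajc3.

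Further metabolic lists held more falls than rises. Of 33 glycolysis and hypoxia genes 12 fell and 1 rose, and 8 fell without WT 237. Slc16a3, which exports lactate, was at 269, 239 and 308 CPM in WT and 4.05, 0.144, 0.321 and 0.313 CPM in EF (-7.82 ± 1.21). Bnip3, a mitophagy receptor induced by hypoxia, fell by 1.73 ± 0.32. Pfkm, the muscle type of phosphofructokinase, rose by 1.26 ± 0.19, from 38.3 to 38.7 CPM in WT to 79.8 to 102 CPM in EF. The abundant enzymes of the pathway moved less, with Pkm at 2602 to 3148 CPM in WT and 1251 to 2663 CPM in EF (edgeR adjusted p = 0.285). Of 23 cholesterol synthesis genes 7 fell (median -0.82), and 3 fell without WT 234 or WT 237. Insig1, the sterol-sensing brake of the pathway, was at 157, 131 and 149 CPM in WT and at 26, 25.3, 24.7 and 22 CPM in EF, with very little spread in either group (-2.57 ± 0.19, edgeR adjusted p = 0.000646). Mvd and Fdps, enzymes between mevalonate and farnesyl diphosphate, fell (-2.39 ± 0.29 and -2.05 ± 0.35). Fatty acid synthase, Fasn, did not pass (0.26 ± 0.34).

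Of 28 antioxidant and glutathione genes 8 fell and 2 rose. Sod3, the superoxide dismutase of the extracellular space, was at 441, 337 and 411 CPM in WT and 7.02, 1.1, 12.3 and 1.22 CPM in EF (-6.20 ± 0.95, edgeR adjusted p = 0.00588). Sod2, the mitochondrial form and an NF-kappaB target, was at 254 to 360 CPM in WT and 39.8 to 57.3 CPM in EF (-2.70 ± 0.24). Gpx7, a peroxidase that helps to fold proteins in the endoplasmic reticulum, fell by 8.84 ± 0.70, and Gpx3, a secreted peroxidase, fell by 6.02 ± 0.99. The peroxidase genes Gpx4 and Prdx2 did not pass. The 2 rises kept their calls only when EF 219 was the library left out, and neither was kept in any other omission. Of 24 nuclear-encoded respiratory chain genes 1 fell, Cox6a2, a muscle-type subunit (-5.79 ± 1.09), while 12 fell without WT 202. Of 13 mitochondrially encoded protein genes mt-Nd4l rose (3.02 ± 0.70, edgeR adjusted p = 0.0237 and 0.102 without WT 237).

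The matrix changed by class. Microfibril and elastic fibre genes had 10 of 18 members lower and 2 higher (median -2.35), with 7 lower without WT 237 or EF 221 and neither rise kept without WT 234 or WT 237. Mfap5, a microfibril glycoprotein, was at 471, 510 and 295 CPM in WT and 2.15, 1.01, 1.86 and 0.869 CPM in EF (-8.18 ± 0.49, edgeR adjusted p = 0.000457). Efemp1, the gene of fibulin-3, was at 94 to 292 CPM in WT and below 0.3 CPM in EF, and Fbln2, that of fibulin-2, was at 1828 to 4961 CPM in WT and 10.3 to 45.2 CPM in EF (-7.03 ± 0.78). Fbln5, that of fibulin-5, did not pass, with 209 to 314 CPM in WT, 382 CPM in EF 225 and 99.6 to 110 CPM in the other EF libraries. Fbn1, the fibrillin that microfibrils are built on, fell by 3.66 ± 0.66, with a difference of -2.69 without WT 202.

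Of 23 fibrillar collagen and collagen-processing genes 6 fell, with a median of -1.09. Col14a1, which binds to the surface of collagen fibrils, was at 102, 73.5 and 36.1 CPM in WT and 0.41, 0.144, 0.128 and 0.174 CPM in EF (-8.32 ± 0.58, edgeR adjusted p = 0.000581). Col1a1, the chain that makes most of bone collagen, was at 5642, 5399 and 5512 CPM in WT and 235, 1358, 320 and 1172 CPM in EF. It fell by 2.84 ± 0.66, and its call was lost without WT 234 or WT 237 (edgeR adjusted p up to 0.0743). Col1a2, the partner chain, was at 73.3 and 597 CPM in EF 219 and 225 and at 2742 and 2171 CPM in EF 221 and 229, against 5477 to 10646 CPM in WT, and did not pass (edgeR adjusted p = 0.129). Serpinh1, the collagen chaperone of the endoplasmic reticulum, fell from 1578 to 1845 CPM to a narrow 581 to 610 CPM (-1.53 ± 0.25). P4ha2, which hydroxylates collagen prolines, fell by 2.01 ± 0.32. Of 20 basement membrane genes 3 rose and 2 fell, and no rise kept its call without WT 234, WT 237, EF 221 or EF 229. Col18a1, the source of endostatin, fell by 4.61 ± 0.92, and Col4a5, a collagen IV chain, rose by 3.23 ± 0.89 with its call lost without WT 234, WT 237, EF 221, EF 225 or EF 229 (edgeR adjusted p up to 0.152).

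Among 19 proteoglycan genes 6 fell and 2 rose, with 2 falls left without WT 234 or EF 229. Vcan, the large hyaluronan-binding versican, was at 2739, 405 and 708 CPM in WT and 4, 14.6, 6.93 and 6.57 CPM in EF (-7.32 ± 0.88, and -6.11 without WT 202). The hyaluronan synthase gene Has1 had no count in EF and was at least 195-fold lower. Bgn and Dcn, small proteoglycans that coat collagen, did not pass, and EF 219 and 225 lay far below EF 221 and 229 in Dcn (21.8 and 16.8 against 268 and 494 CPM). Omd, an osteoblast proteoglycan, rose from 0.505 to 3.06 CPM to 19.9 to 267 CPM (6.05 ± 1.26), a call that was lost without WT 234 or WT 237 (edgeR adjusted p up to 0.0689). Of 19 matricellular genes 9 fell and 3 rose, and no rise kept its call without WT 234. Sparc, a collagen-binding protein of bone, fell from 4488 to 5522 CPM to 1254 to 1370 CPM (-1.89 ± 0.28), and Comp, a cartilage and tendon protein, fell by 6.94 ± 1.08. Thbs1, the gene of thrombospondin-1 and an activator of latent TGF-beta, went the other way. It was at 2270, 1374 and 2095 CPM in WT and 7417, 15247, 33630 and 14006 CPM in EF (3.20 ± 0.62, edgeR adjusted p = 0.0127, and up to 0.0592 without WT 234 or WT 237).

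Of 22 matrix proteases and inhibitors 8 fell, and 4 fell without WT 237. Mmp2, which cleaves gelatin and collagen IV, was at 1261, 467 and 469 CPM in WT and 103, 88.2, 41.4 and 55.2 CPM in EF (-3.35 ± 0.51, edgeR adjusted p = 0.00596). Htra3, a secreted serine protease, fell by 4.89 ± 0.47. Timp1, an inhibitor of metalloproteases, fell by 3.30 ± 0.66 (edgeR adjusted p = 0.0144, and 0.0518 without WT 237), while Timp2 did not pass (0.44 ± 0.40). Adamts1, a protease of versican, was at 1908 CPM in EF 225 and 130 to 290 CPM in the other EF libraries.

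**Figure D3:**
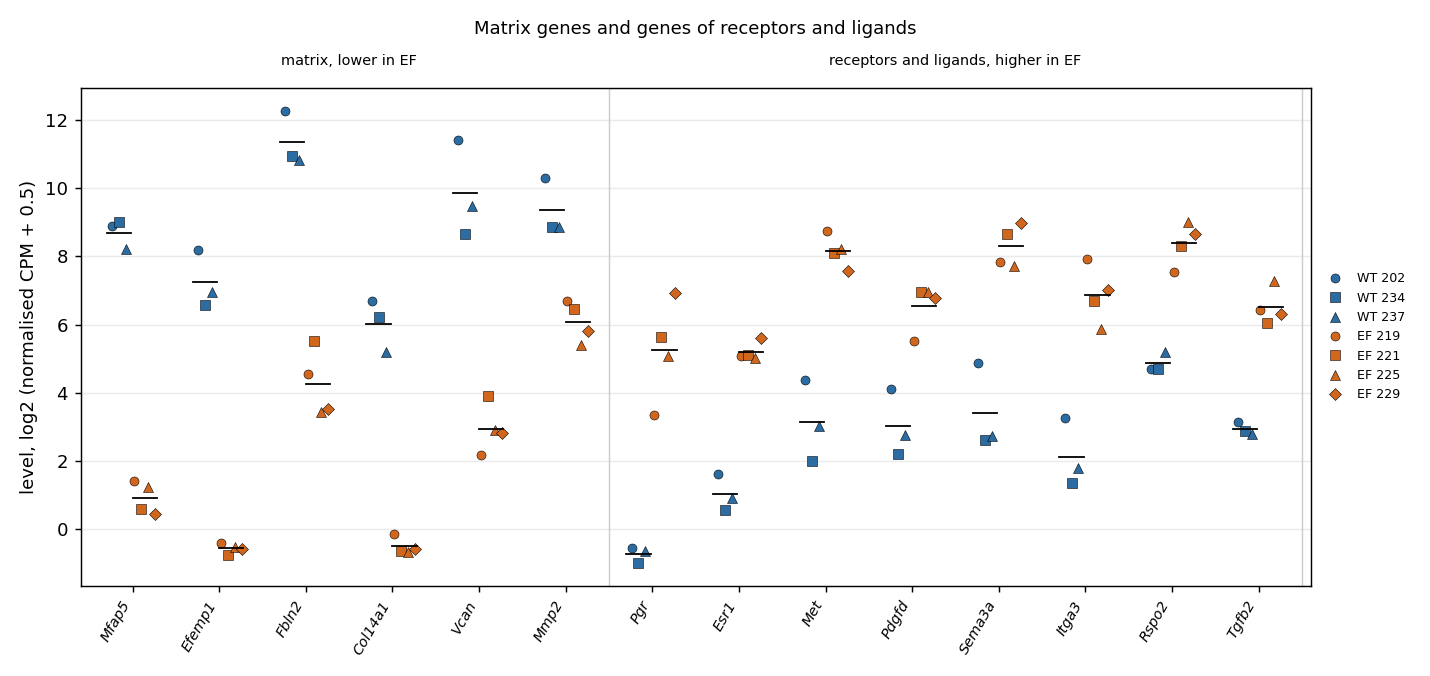
Levels of 6 matrix genes and 8 genes of receptors, adhesion molecules and ligands as log2 of normalised CPM + 0.5, with 1 point per library (WT blue, EF orange) and a bar at each group mean. The genes were picked for the figure by their direction of change, so the separation describes them and not their lists. No EF point of the matrix genes reaches a WT point, and every EF point of the other genes lies above the WT points.

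Markers of differentiated connective tissue were mixed. Of 10 tendon and joint genes 6 fell, the list with the lowest median of the stroma (-4.24), and 3 fell without WT 234. Tnmd, a tendon membrane protein, had no count in EF and was at least 156-fold lower, and Egr2, an early response factor of tendon cells, was at 28.4 to 31.3 CPM in WT and did not exceed 0.717 CPM in EF (-6.31 ± 0.50). Of 19 adipogenic and lipid-storage genes 6 fell. Cebpb and Cebpd, the factors that open adipogenesis and also serve in the acute-phase response, fell (-3.86 ± 0.46 and -3.21 ± 0.55), and Cd36, a fatty acid transporter, fell by 4.68 ± 0.71. Of 9 osteoblast genes 3 rose and 1 fell, with 1 rise left without WT 234 or WT 237. Runx2, the master factor of bone formation, was at 11.4 to 19.5 CPM in WT and 28.2 to 58.8 CPM in EF (1.66 ± 0.34), a call that was lost without WT 234 or WT 237 (edgeR adjusted p up to 0.0754). Pth1r, the parathyroid hormone receptor of osteoblasts, fell by 3.79 ± 0.63. Of 8 chondrocyte genes 2 rose and 2 fell, with neither rise kept without WT 237 and 3 falls without WT 234. They had the joint factor Frzb up by 3.29 ± 0.62 (edgeR adjusted p up to 0.0561, without WT 237), while Col11a2, a cartilage collagen, fell by 2.41 ± 0.42.

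Some transcription factors of limb mesenchyme passed the test, while almost no Hox gene did. Of 22 limb mesenchyme transcription factors 4 rose and 4 fell, 18.2% each against 7.7% and 12.1% over all genes tested. No rise was kept without WT 237, and 2 falls were left without WT 234 or EF 229. Prrx1 was at 271, 139 and 213 CPM in WT and at 645, 767, 304 and 796 CPM in EF. All EF libraries were above all WT libraries (1.59 ± 0.43, edgeR adjusted p = 0.039), though the call was kept only when WT 202 or EF 225 was the library left out (edgeR adjusted p up to 0.138). Msx2, a factor of the distal limb, rose by 3.98 ± 0.76 (edgeR adjusted p up to 0.0561, without WT 237), and Lhx9 and Six2, other limb factors, fell from under 5 CPM (-3.79 ± 0.68 and -5.29 ± 0.98). Of 31 Hox genes 1 rose, which is 3.23% against 7.7% over all genes tested, and none fell. The 1 was Hoxa9, which helps to set the proximal limb. It was at 9.54, 11.2 and 11.3 CPM in WT and 34.6, 54.2, 58.2 and 51.6 CPM in EF (2.22 ± 0.26, edgeR adjusted p = 0.00262). Hoxa11, a factor of the middle limb segment, was at 56.1 and 68.4 CPM in EF 219 and 225 and at 0.048 and 2.71 CPM in EF 221 and 229, with WT between them at 8.4 to 25.2 CPM. Of 15 genes of a list of EMT factors, which also holds Fox, Osr and Nr2f transcription factors, 5 fell and 3 rose. Without WT 234 there were 2 falls and no rise. Zeb2 and Foxf1 fell (-1.51 ± 0.30 and -2.67 ± 0.47), and Foxc1 rose by 1.27 ± 0.26 (edgeR adjusted p up to 0.0672, without WT 234).

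Steroid receptors were among the rises. Of 24 nuclear receptor genes 4 rose and 4 fell. Esr1, the oestrogen receptor alpha, was at 2.56, 0.984 and 1.37 CPM in WT and 33.4, 33.8, 32.1 and 48.5 CPM in EF (4.47 ± 0.43, edgeR adjusted p = 0.00156). Pgr, the progesterone receptor, is itself a target of oestrogen receptors in many tissues, and was at most 0.18 CPM in WT and at 9.63, 48.9, 33.1 and 122 CPM in EF. For both, each EF library was above each WT library, and the spread in EF was less for Esr1. The glucocorticoid receptor Nr3c1 and the retinoid receptors Rxra and Rarg did not pass. Those that fell included Nr4a2, an early response receptor (-2.16 ± 0.60), with its call kept only without WT 202 or WT 234 (edgeR adjusted p up to 0.162). No fall in this list kept its call without WT 237 or EF 229.

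Receptors and ligands of growth and guidance moved in both directions. Met, the receptor of hepatocyte growth factor, was at 20.4, 3.48 and 7.58 CPM in WT and 430, 275, 299 and 191 CPM in EF (4.83 ± 0.70, edgeR adjusted p = 0.00506). Pdgfd, a PDGF that signals through PDGFRB, rose by 3.47 ± 0.62. In the same list of 22 genes 3 rose and 6 fell (3 without WT 234 or WT 237), among them Vegfa, the main angiogenic factor (-2.02 ± 0.36), and Gas6, a ligand of AXL (-3.71 ± 0.53). Of 40 ephrin, semaphorin, netrin and slit genes 5 rose (12.5%) and 4 fell (10%), near the 7.7% and 12.1% over all genes tested. Sema3a, a repellent of axons that also protects bone, was at 29.1, 5.68 and 6.14 CPM in WT and 229, 400, 208 and 505 CPM in EF (4.62 ± 0.78). Epha2, an ephrin receptor, rose by 2.79 ± 0.42, Sema3f by 2.98 ± 0.48, and Ephb2, another ephrin receptor, fell by 6.10 ± 0.90. Of 22 integrin and focal adhesion genes 6 rose and 2 fell (2 rose without WT 234 or WT 237). Itga3, a laminin receptor chain, was at 9.04, 2.04 and 2.96 CPM in WT and 242, 103, 58.1 and 130 CPM in EF (4.82 ± 0.76), and Itga8, a receptor chain for nephronectin, rose by 3.84 ± 0.41. Itga11, a collagen receptor chain of fibroblasts, fell by 2.67 ± 0.50. These chains were named by p-value, and other integrin chains of the list are not reported here. No pattern by ligand can thus be read from them.

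Of 39 TGF-beta and BMP genes 10 rose and 6 fell, and 2 rose without WT 234 or WT 237. The ligands parted ways. Tgfb2 was at 8.37, 6.89 and 6.42 CPM in WT and 85.1, 66.1, 155 and 78.8 CPM in EF (3.73 ± 0.38), while Tgfb1 was at 84.2, 133 and 102 CPM in WT and 20.7, 22.5, 17.1 and 23.2 CPM in EF (-2.35 ± 0.23, edgeR adjusted p = 0.00169). Macrophages make Tgfb1 too, and their part in its fall was not tested. Acvrl1, a type I receptor of BMP9, fell by 5.13 ± 0.57. Grem1, a BMP antagonist, was at 998, 1261 and 995 CPM in EF 219, 221 and 229 and 88.5 CPM in EF 225, and did not pass. Nog, which encodes the BMP antagonist noggin, rose by 3.59 ± 0.69 (edgeR adjusted p up to 0.0543, without WT 234).

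Of 35 Wnt genes 7 rose and 3 fell. There was 1 rise without WT 234 and 12 without WT 202, and 1 fall without WT 234, WT 237 or EF 229 and 7 without EF 225. Rspo2, an enhancer of Wnt signalling with a part in limb growth, was at 25.7, 25.6 and 36.5 CPM in WT and 186, 317, 517 and 402 CPM in EF (3.60 ± 0.43, edgeR adjusted p = 0.00276). Lgr6, a receptor of R-spondins, rose by 6.74 ± 1.32 (edgeR adjusted p = 0.0137, and 0.0522 without WT 234). Sfrp1, a Wnt antagonist, fell by 4.51 ± 0.75 from 215 to 485 CPM to 5.56 to 37.2 CPM. Of 27 FGF and EGF genes 6 rose (2 without WT 234 or WT 237) and 4 fell (2 without WT 234), among them Fgf1 up by 2.80 ± 0.44, the receptor gene Fgfr3 up by 4.77 ± 0.72 from at most 0.217 CPM, and the ETS factor gene Etv1, which fell by 1.93 ± 0.32. Fgfr1, the main FGF receptor of mesenchymal cells, did not pass (-0.64 ± 0.42). Of 17 Notch and Hedgehog genes 1 rose and 1 fell, both Notch ligands. The call of Jag1 (1.80 ± 0.45) was lost without WT 234, WT 237 or EF 219 (edgeR adjusted p up to 0.125), and that of Jag2 (-2.72 ± 0.77) without any library but WT 202 or EF 219 (up to 0.185). Of 21 IGF axis genes 2 rose and 4 fell. No fall was left without WT 234, and 9 genes fell without EF 225. Irs1, the docking protein of the IGF-1 receptor, was at 16.2, 7.87 and 8.45 CPM in WT and 67.6, 70.8, 66.8 and 94.3 CPM in EF, and Igf1r itself was at 59.4 to 271 CPM in WT and 87.2 to 191 CPM in EF.

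Of 23 YAP1/TAZ-TEAD targets 7 rose and 2 fell, a share of rises of 30.4% against 7.7% over all genes, and the rises were 3 without WT 234 or WT 237 and 13 without WT 202. Ajuba, a LIM protein that holds LATS kinases in check, was at 18.8, 12.6 and 16.5 CPM in WT and 85.2, 99.8, 110 and 93.8 CPM in EF, a difference with very little spread (2.60 ± 0.24, edgeR adjusted p = 0.00134). Ccn1, a matricellular target, was at 269, 421 and 548 CPM in WT and 932 to 1877 CPM in EF, and its call was kept only without WT 202 (edgeR adjusted p up to 0.114). Ccn2, its relative, was at 205 and 218 CPM in EF 219 and 225, 1126 and 949 CPM in EF 221 and 229, and 295 to 458 CPM in WT. Of 23 Hippo components 7 rose and 1 fell, and 1 rose without WT 234 or WT 237 and 14 without WT 202. Wwc1, a scaffold that activates LATS, rose in all 4 EF libraries (14.7 to 45.7 CPM against 0.65 to 2.29 CPM), Dchs1, a protocadherin upstream of the pathway, fell by 4.67 ± 0.53, and Tead4, a partner of YAP1, rose by 2.84 ± 0.67 (edgeR adjusted p up to 0.106, lost without WT 234, WT 237 or EF 229). Of 17 contractile genes 4 rose and 1 fell, and no rise was kept without WT 234, WT 237 or EF 221. The fall was kept in no omission other than that of WT 202, where 3 fell. Of 15 cadherin and junction genes 3 rose and 1 fell, with all 3 rises kept without WT 202 and none without WT 234, WT 237, EF 219, EF 221 or EF 229. No fall was left without EF 221 or EF 229, and 3 fell without WT 202. Of 10 caveolae genes 3 rose and 1 fell, with 1 rise left without WT 234, WT 237, EF 219, EF 221 or EF 229 and no fall left without WT 234, WT 237, EF 219 or EF 229. Ehd4, an ATPase that shapes membranes, rose from 39.9 to 62.5 CPM in WT to 129 to 168 CPM in EF.

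**Figure D4:**
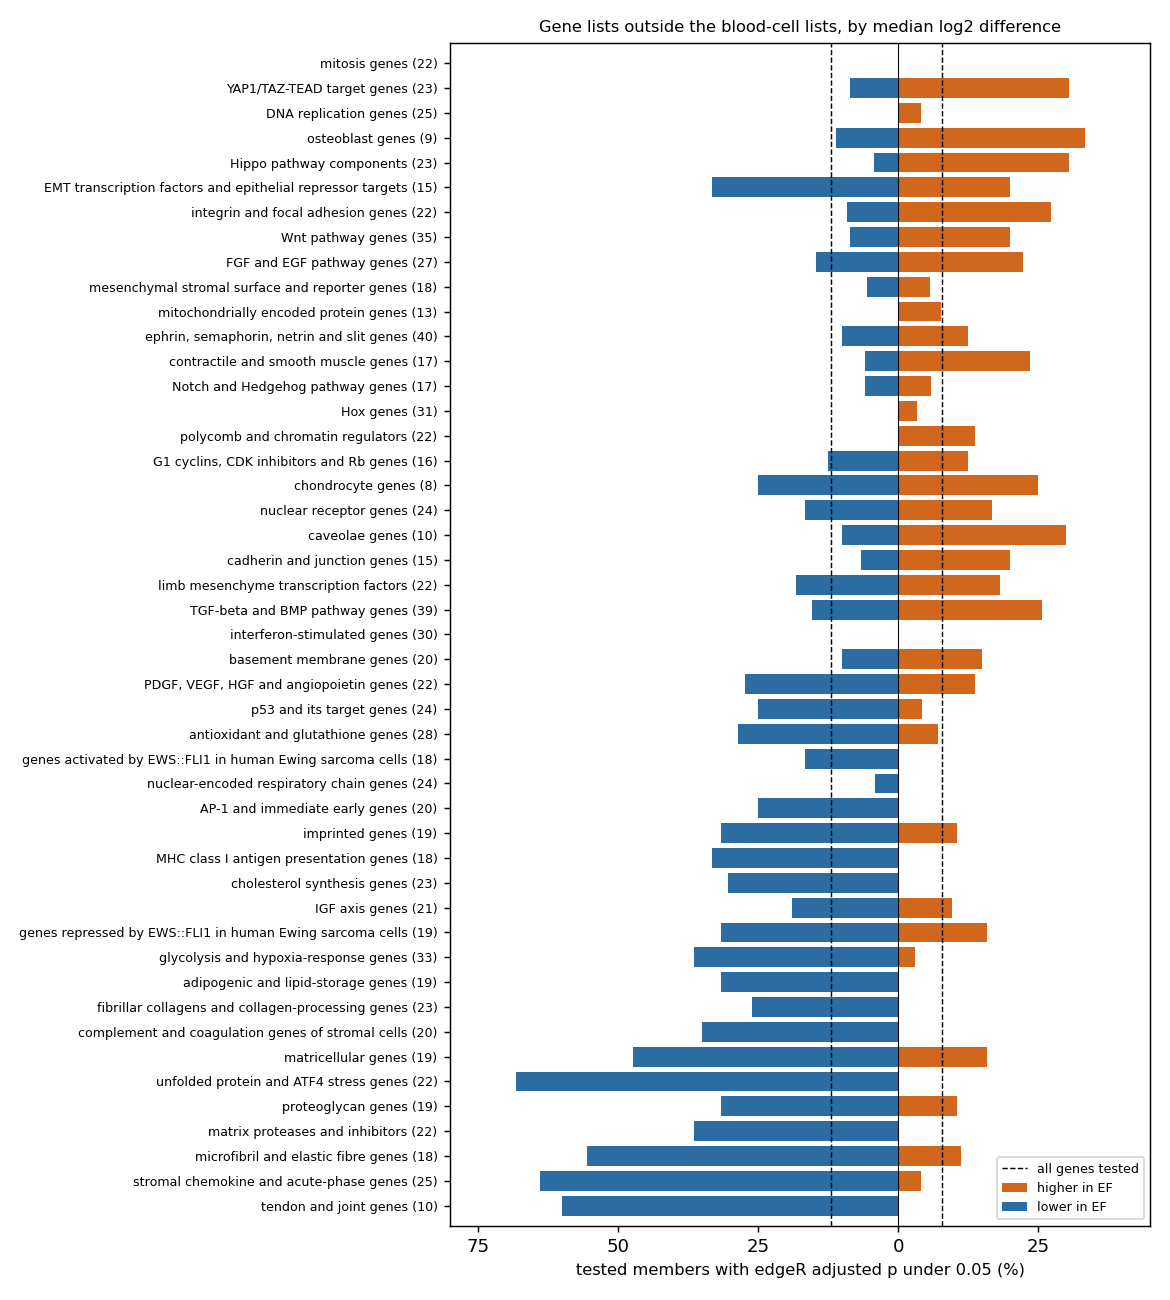
Share of tested members of the gene lists, all but those of blood, shared and other cell types, that fell (blue, to the left) or rose (orange, to the right) in EF, in percent, with lists ordered by median log2 difference and the number tested in parentheses. Dashed lines mark the shares over all genes tested, 12.1% lower and 7.7% higher. The unfolded protein list has the longest bar to the left.

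Cell cycle genes were high in EF 219, 221 and 229 and low in EF 225. The summed mitosis list, per library total, was at 183, 584 and 457 CPM for WT 202, 234 and 237, at 2318, 2192 and 1940 CPM in EF 219, 221 and 229, and at 119 CPM in EF 225. Mki67, a marker of cycling cells, was at 50.4, 88.8 and 56.7 CPM in WT, 241, 189 and 157 CPM in EF 219, 221 and 229, and 7.37 CPM in EF 225. Of 22 mitosis genes none passed edgeR's test with all 7 libraries, and 14 rose without EF 225. Without adjustment 6 had p under 0.05, all higher in EF, and DESeq2 called 6 and limma-voom 0. Of 25 replication genes 1 rose, Mcm4, a helicase subunit (1.72 ± 0.50), with its call kept only without EF 225 (edgeR adjusted p up to 0.158), when 11 genes of the list rose. Top2a, which untangles sister chromatids, was at 304 to 397 CPM in those 3 libraries and 15.1 CPM in EF 225, against 27.8 to 73.9 CPM in WT. The low EF library was thus below all WT libraries for this gene and the others above them.

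Single brakes of the cycle moved in both directions. Cdkn2a, which encodes p16 and ARF, was at 43.8, 116 and 109 CPM in WT and 1.59, 0, 2.05 and 0.174 CPM in EF (-6.59 ± 1.19, edgeR adjusted p = 0.00998). Cdkn2b, its neighbour on chromosome 4, was at 33.5 to 45.8 CPM in WT, at 18.9 and 30.5 CPM in EF 219 and 225, and at 0.048 and 1.18 CPM in EF 221 and 229. Mtap, a near neighbour, was at 44.2 to 66.8 CPM in WT and 45.8 to 138 CPM in EF, with every EF library above the lowest WT library. Over chromosome 4 as a whole 195 of 865 genes tested fell and 14 rose, and over chromosome 7, which holds Cdkn1c and H19, 223 of 1101 fell and 28 rose, against 12.1% and 7.7% over all genes. These 2 chromosomes were singled out after their counts were seen, and their part in the falls named was not tested. Cdkn1c, an imprinted inhibitor, fell by 6.66 ± 1.22 and Cdkn1b, the gene of p27, rose by 1.02 ± 0.20 (edgeR adjusted p up to 0.0549, lost without WT 234 or EF 221). Of 16 genes of this list 2 rose and 2 fell, 12.5% each, near the 7.7% and 12.1% over all genes tested. No rise was kept without WT 234 or EF 221. Of 24 p53 genes 6 fell and 1 rose, and 1 fell without WT 234. Bax and Bbc3, inducers of cell death, fell (-1.55 ± 0.32 and -2.12 ± 0.42), with the calls of both lost without WT 234 or WT 237 and that of Bax also without EF 221 or EF 229 (edgeR adjusted p up to 0.059 and 0.0652). Trp53 did not pass (0.23 ± 0.27), and Cdkn1a, the gene of p21, was at 299 to 372 CPM in WT, 211 to 354 CPM in 3 EF libraries and 36 CPM in EF 225.

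Imprinted genes held some of the large falls. H19, a non-coding RNA expressed from the maternal allele, was at 1677, 4801 and 2691 CPM in WT and 4.2, 1.73, 1.92 and 1.56 CPM in EF (-10.34 ± 0.70, edgeR adjusted p = 0.000553). The groups were more than 2 orders of magnitude apart, with WT ranked as in the blood-cell genes. Igf2, which shares its enhancers with H19, was at 24.1, 537 and 295 CPM in WT and 0.564, 0.048, 12.4 and 0.104 CPM in EF and did not pass (edgeR adjusted p = 0.0524). Meg3, another maternal non-coding RNA, was at 286, 420 and 378 CPM in WT and 2.41, 30.3, 23.3 and 11.7 CPM in EF (-4.41 ± 0.76), and Peg3, a paternally expressed zinc finger gene, rose by 3.47 ± 0.68 (edgeR adjusted p up to 0.0557, lost without WT 234 or WT 237). Over the list of 19, 6 fell and 2 rose, with 3 falls and no rise without WT 234 or WT 237.

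Early response genes fell in 5 of 20 tested, and in 1 without WT 237. Atf3, a stress-induced factor, was at 19.9, 63.7 and 78.2 CPM in WT and 1.47 to 8.93 CPM in EF (-3.34 ± 0.66, edgeR adjusted p = 0.014, and 0.0544 without WT 237). Of 22 polycomb and chromatin genes 3 rose, with 1 left without WT 234, WT 237 or EF 221 and 7 higher without EF 225. Cbx2, a polycomb subunit, was at 2.65 to 4.54 CPM in WT and 11.5 to 16.6 CPM in EF (1.99 ± 0.35), and Suz12, a core subunit, rose by 0.97 ± 0.23 with its call lost without WT 234, WT 237, EF 221 or EF 229 (edgeR adjusted p up to 0.122). Of 18 genes reported as activated by EWS::FLI1 in human Ewing sarcoma cells 3 fell, Egr2, Vegfa and Il1rap, and none rose. The share of falls was 16.7%, near the 12.1% over all genes tested. In this list DESeq2 called 3 higher and 5 lower, and limma-voom 0 higher and 4 lower. Of 19 reported as repressed 6 fell and 3 rose, among them Il6 down and Thbs1 up. These are 31.6% and 15.8%, against 12.1% and 7.7% over all genes tested. There were 2 falls without WT 234 and no rise without WT 234 or WT 237. Both lists come from human tumour cells and were not derived in mouse mesenchymal cells.

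The largest rises outside the lists of blood cells were of genes nearly silent in WT, and the EF libraries differed widely in several of them, but not in Cdh26. Egflam, a matrix protein known from photoreceptor synapses, was at 0.27 to 0.454 CPM in WT and 46.2, 86.3, 26.4 and 116 CPM in EF (7.67 ± 0.72, edgeR adjusted p = 0.00144). Cdh26, a cadherin of epithelia, was at most 0.151 CPM in WT and 12.9, 17.9, 13.5 and 13.5 CPM in EF (7.37 ± 0.71). Slco1a5, an organic anion transporter, rose by 7.98 ± 1.24. Dync1i1, a dynein chain, had 2 counts in WT and was at 37.5, 14.8, 2.95 and 9.56 CPM in EF. Galnt15, a glycosyltransferase, had no count in WT and was at 13.2, 2.64, 53.4 and 1.63 CPM in EF, at least 231-fold higher, with its call lost without WT 234, WT 237 or EF 219 (edgeR adjusted p up to 0.0829). Nptx1, a neuronal pentraxin, was at 719 CPM in EF 219 and 3.79 to 20.3 CPM in the others, and Sostdc1, an antagonist of BMP and Wnt ligands, at 130, 1.1, 25.6 and 10.5 CPM. The call of Nptx1 was lost without each WT library, and that of Sostdc1 without WT 234 or WT 237 (edgeR adjusted p up to 0.149 and 0.0856). Outside the myeloid genes, the largest falls also held Ostn, the bone and muscle hormone osteocrin, at 8.73 to 17.3 CPM in WT and with no count in EF (at least 329-fold lower), Thbs4, a tendon thrombospondin with 1 count in EF, and Crabp1, a retinoic acid carrier of dermal and limb fibroblasts, at 4.72, 133 and 197 CPM in WT and no more than 0.257 CPM in EF.

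The 4 EF libraries were not alike. EF 221 and 229 were close in nearly all genes, with 366 genes, 2.51% of those tested, over 2-fold apart, against 17.4 to 28.1% for the other EF pairs. Over all genes EF 219 lay closer to EF 229 and 221 (17.4% and 18.6% over 2-fold apart) than to EF 225 (24.7%). In some genes, chosen after their values were seen, EF 219 and 225 were both apart from the pair of 221 and 229. In the summed interferon-stimulated list they were at 4013 and 4069 CPM, against 535 and 637 CPM in EF 221 and 229 and 1723 to 2717 CPM in WT. Ifit3, an interferon-induced antiviral gene, was at 488 and 628 CPM in EF 219 and 225, 26.4 and 47.6 CPM in EF 221 and 229, and 32.3 to 180 CPM in WT. Of 30 interferon-stimulated genes none passed edgeR's test. Without adjustment 2 higher and 2 lower genes had p under 0.05, DESeq2 called 2 in each direction, and limma-voom called 2 as lower. Biglycan, Bgn, was at 42 and 481 CPM in EF 219 and 225 and at 2968 and 3340 CPM in EF 221 and 229. EF 225 in turn stood alone in other genes. Igf1 was at 198 CPM there, against 2.35 to 10.1 CPM in the other EF libraries and 51 to 106 CPM in WT. Postn, the matrix protein periostin, was at 1110 CPM in EF 225 and 3.26 to 58.5 CPM in the others, and Grb10, an adaptor that limits insulin and IGF receptors, at 19.6 CPM against 251 to 419 CPM. The difference between EF libraries was not tested, because the labels give no groups within EF.

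**Figure D5:**
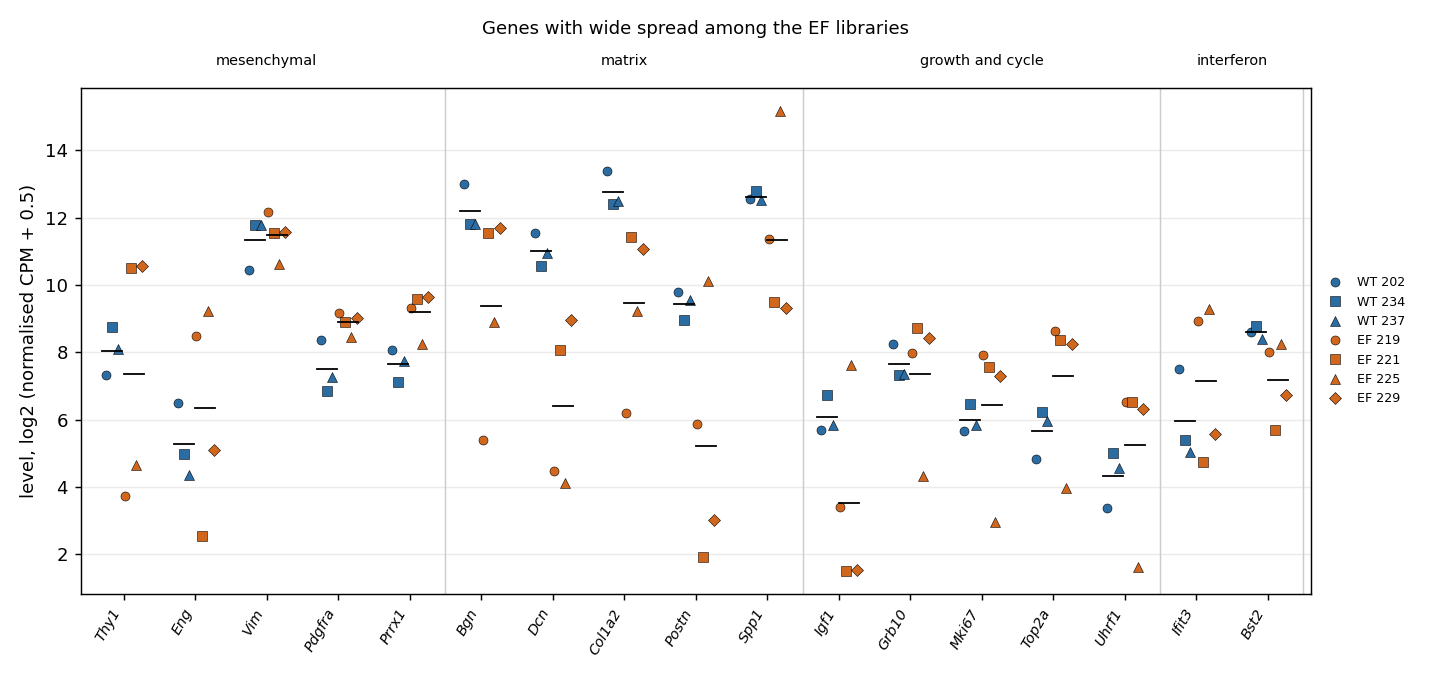
Levels of stromal markers, matrix, growth, cell cycle and interferon genes as log2 of normalised CPM + 0.5, with 1 point per library and a bar at each group mean. EF 219 (circle) and 225 (triangle) lie together and far from EF 221 (square) and 229 (diamond) for Thy1, Eng and Ifit3, and EF 225 is alone for Mki67, Igf1 and Spp1.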

How the data were processed

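RNA-seq counts of 55471 mouse genes in 15 libraries were analysed, and the 7 libraries of experiment 1 entered the comparison. The deposited values are expected counts per gene, made by the authors with STAR and RSEM on GRCm38.p6, per the submitters' processing notes. Neither the tool versions nor the annotation release or strand setting is recorded there, so antisense, overlapping and near-identical genes can share counts. Of the values 8.29% were not whole. The expected counts were rounded, which moved no library total by more than 0.000476%, and tested in R 4.3.3 with edgeR 4.0.16: genes were kept by filterByExpr with a minimum count of 10, scaled by TMM, fitted with a robust glmQLFit and tested two-sided with glmQLFTest and Benjamini-Hochberg adjustment at 0.05. The script was tested on simulated data.

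Library totals were 14906180 to 26833876 counts. Standard errors are the size of the log2 difference over the square root of F. Where a symbol had several identifiers, the one of highest mean was kept. Genes without a count in 1 group have a bound against 3 counts over the group. The median transcript length came from the reference annotation of the same build, and promoters came from RefSeq on GRCm38.p6.

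The comparison and the 60 gene lists were chosen with earlier results of these data known. The genes named were taken from 30 key genes, the 15 largest changes per direction outside the blood-cell and shared lists (groups not overlapping, at least 10 CPM in the higher group), up to 5 called members of each list by p-value and up to 3 others by level, and the 4 most abundant genes of each blood-cell list in WT. Ccl20, Hsp90b1, Hspa5, Ighm, Nfkbia, Pdia6, Steap4 and Tnfaip3 fall outside this rule and were chosen after their values were seen. Alternatives were DESeq2 1.42.0 (size factors and Wald test), limma-voom (limma 3.58.1), no filter and a filter of 5 CPM in 3 libraries, a test against a 2-fold threshold, scaling without blood-cell and shared or mitochondrial genes, leaving out the blood-cell and shared genes with all genes that follow the libraries' order of leukocyte gene level (rising with it across WT and highest in the EF library where it is highest), and leaving out each library in turn. Some members of the lists are not reported here.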

Additional observations from a re-analysis of the deposited data

Results flagged for a closer look

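For 26 of the 201 genes named, 1 of the 4 EF libraries stood apart from the other 3 by Dixon's criterion at 95% (the gap to the nearest library over the range of the 4, on log2 of CPM + 0.5). Chance alone marks about 1 in 20 groups, but that rate does not hold for genes named in part by their values. Ighm was named after its values were seen, and the other 3 EF libraries had no count of Ccl11, Erg, Tfpi2 and Thbs4. No cause was tested.

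EF 225 stood apart more often than any other EF library. It was the lowest library for Mki67 (7.37 against 157 to 241 CPM), Top2a (15.1 against 304 to 397 CPM), Grem1 (88.5 against 995 to 1261 CPM), Grb10 (19.6 against 251 to 419 CPM), Mtap (45.8 against 129 to 138 CPM) and Pdia6 (287 against 380 to 396 CPM). It was the highest for C1s1 (641 against 112 to 119 CPM), Fbln5 (382 against 99.6 to 110 CPM), Nr3c1 (246 against 97.2 to 106 CPM), Rxra (141 against 71.8 to 77.2 CPM), Apoe (2.76 against 1.39 to 1.53 CPM), Ighm (147 against 0 to 0.104 CPM) and Erg (0.0641 CPM, a single count).

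EF 219 was the highest for the leukocyte genes Ptprc (5.79 against 0.0348 to 0.128 CPM) and Fcgr2b (23.6 against 0.192 to 0.257 CPM), for the platelet chemokine Pf4 (0.564 against 0 to 0.048 CPM) and for the lactate exporter Slc16a3 (4.05 against 0.144 to 0.321 CPM). It was also highest for Fgf1 (8.4 against 4.94 to 5.04 CPM) and Tfpi2 (0.0512 CPM, a single count), and lowest for Pdgfd (45.1 against 110 to 124 CPM). EF 229 was the highest for Esr1 (48.5 against 32.1 to 33.8 CPM), Irs1 (94.3 against 66.8 to 70.8 CPM), Ccl11 (0.104 CPM, 3 counts) and Thbs4 (0.0348 CPM, a single count), and the lowest for Hba-a1 (0.139 against 0.575 to 0.641 CPM). EF 221 was the highest for Cdh26 (17.9 against 12.9 to 13.5 CPM).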

How the results depend on the processing

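The number of genes called changed widely with the libraries used. The 1124 higher genes were 245 to 2519 with 1 library left out, lowest without WT 237 and highest without WT 202. They were 271 without WT 234, 438 without EF 229 and 469 without EF 221. The 1763 lower genes were 974 to 2568, lowest without WT 237, with 1004 without WT 234 and 1142 without EF 229. Outside the blood-cell and shared lists the 1123 higher genes were 245 to 2518 and the 1635 lower genes 877 to 2441. DESeq2's Wald test called 2043 higher genes (2042 outside those lists). Against a 2-fold threshold edgeR called 290 higher genes (290 outside those lists) and 988 lower genes (880 outside them). Under the other 7 settings that kept all libraries all 4 counts stayed within 1.5 times, and the cause of these shifts was not tested. No paired analysis was possible because the title numbers of the 7 libraries are all different.

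Genes that passed the test and are named here kept their direction in every setting that tested them. The log2 differences that changed sign belonged to genes that had not passed. Phgdh (0.0138) was at -0.0351 with DESeq2 size factors, -0.0315 with the stricter filter, -0.0349 by DESeq2, -0.0804 scaled without blood-cell and shared genes, -0.0631 scaled without mitochondrial genes, -0.0851 with blood-cell, shared and order-following genes left out, and -0.1551 to 0.0672 with 1 library left out. By limma-voom Grb10 was at -0.3487, Hoxa11 at -1.8970, Igf1r at 0.2876, Spp1 at -1.1964 and Thy1 at -0.8766. With 1 library left out Arhgdib was at -0.8399 to 0.1522, Ewsr1 at -0.2817 to 0.0492, Fgfr1 at -0.9249 to 0.0471, Fn1 at -1.1028 to 0.4118, Grb10 at -0.0831 to 0.6693, Igf1r at -0.3973 to 0.9583, Rxra at -0.0666 to 0.373, Spp1 at -2.3093 to 1.0186 and Vim at -0.2409 to 0.321. Of 200 genes named and tested, 26 lost their call without WT 234 and 29 without WT 237. Genes of a few counts, such as Erg in EF, are limited by depth.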
